A study of Mus musculus with 36 samples.

Results

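The Hippo pathway and its effector YAP were followed through 10 genes: the YAP target genes Ccn1, Ccn2, Ankrd1, Amotl2 and Lats2, the coactivator genes Yap1 and Wwtr1, and the genes of the TEAD factors Tead1, Tead2 and Tead4. They are 10 of the 55335 genes in the count table and were taken by gene name. The set was proposed around Ccn1, which was chosen by a measured value, the change of the BPK25 effect between days; the others are textbook members of the pathway. In that measure Ccn1 ranked 1 of 17394 genes tested and Amotl2 ranked 8. Ccn2 ranked 225, and the other 7 ranked between 737 (Tead1) and 11740 (Lats2). For this reason BPK25 levels of the 10 genes are given as a description without a test, and tests are given for IAA and for the days of the DMSO series. Those tests are not fully separate from the choice of Ccn1, because the DMSO libraries also enter the BPK25 effect.

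Polyadenylated RNA of mouse embryonic stem cells was sequenced at days 0, 2, 4 and 6 under 3 treatments, with 3 libraries in each of the 12 groups and 36 in all. At each day the groups were cells given BPK25, cells given IAA and cells given DMSO. BPK25 is a compound named only by its code, IAA is auxin, which triggers breakdown of a protein in cells where that protein carries a degron tag, and DMSO is a common solvent control. The title of the series concerns the chromatin remodelling complex NuRD and genome folding at CTCF sites. The labels give no dose, no tagged protein, no genotype and no starting event for the day, and they put all 12 groups under the same cell line name, grown with LIF and typically on irradiated fibroblast feeders. No source says whether the replicates came from different cultures, so the p-values speak only to the spread among libraries, possibly a technical one.

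In the Hippo pathway the kinases MST1 and MST2 (genes Stk4 and Stk3) activate LATS1 and LATS2, which phosphorylate YAP and its relative TAZ (gene Wwtr1) and so keep them in the cytoplasm. When the kinases are less active, YAP and TAZ enter the nucleus, bind TEAD proteins on DNA and switch on genes such as Ccn1 and Ccn2; the actin cytoskeleton and cell contacts feed into the same step. In the mouse embryo YAP with TEAD4 directs outer cells to the trophectoderm, the future placenta.

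TEAD proteins recognise the core sequence GGAATG, which reads CATTCC on the other strand. To show the kind of site through which the pathway is known to act, the 250 bases before the RefSeq start of Ccn1, the gene the set was built around, are printed 5′ to 3′ on the gene's strand, with the motif in capitals.
Ccn1 chr3:145649986-145650235 minus strand: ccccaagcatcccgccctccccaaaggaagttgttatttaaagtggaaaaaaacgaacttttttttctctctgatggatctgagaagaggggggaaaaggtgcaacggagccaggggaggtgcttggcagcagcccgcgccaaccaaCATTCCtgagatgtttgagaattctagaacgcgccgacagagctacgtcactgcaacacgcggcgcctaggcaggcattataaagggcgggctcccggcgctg
Of the 10 genes, 7 had a start in the RefSeq promoter table (GRCm38.p6), and 5 of the 7 held the motif on either strand within those 250 bases: Ccn1, Ankrd1, Amotl2, Yap1 and Wwtr1. Lats2 and Tead2 held none there, and Ccn2, Tead1 and Tead4 had no entry. Over all 32851 such windows of 250 bases, 4153 (12.6%) held it. That share is of single windows, whereas 5 of 7 counts genes. Lats2 and Wwtr1 had more than a single window, so the units differ. The 30 bases around each of the remaining matches follow, whatever the gene's change in level, again with the motif in capitals; in Ankrd1 and Amotl2 the RefSeq start lies inside the longer GENCODE gene.
Ankrd1, first site, chr19:36120037-36120066 minus strand: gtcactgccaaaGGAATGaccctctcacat
Ankrd1, second site, chr19:36119950-36119979 minus strand: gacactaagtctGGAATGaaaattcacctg
Amotl2 chr9:102717727-102717756 plus strand: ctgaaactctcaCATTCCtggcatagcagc
Yap1 chr9:8004720-8004749 minus strand: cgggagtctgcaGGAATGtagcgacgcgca
Wwtr1 chr3:57576029-57576058 minus strand: ggtaaactcaaaGGAATGcagataggcgct
The motif began 103 bases before the start of Ccn1, 210 and 123 bases before that of Ankrd1, 65 before that of Amotl2, 141 before that of Yap1 and 136 before that of Wwtr1. A match describes the letters only, and no binding was measured.

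Libraries held 6621288 to 16497799 counts over genes. Levels are CPM, TMM-scaled counts relative to the library total, with ± for the SD over 3 libraries. Log2 fold changes come from edgeR's quasi-likelihood test over 17394 genes, a gene was called at a Benjamini-Hochberg adjusted p under 0.05, and ± after a log2 fold change approximates its standard error. All 10 genes passed the filter on low counts, Ankrd1 through the groups where it was high: in DMSO at day 4 its libraries held 1 to 5 counts, against 34 to 36 in IAA at that day. The pluripotent character of the cells was read from 9 marker genes (Pou5f1, Nanog and others), all above 0 in every group, whose summed level was 3062 CPM in BPK25, 4198 CPM in IAA and 2984 CPM in DMSO at day 0. The sums in the same treatments were 2819, 1539 and 2799 CPM at day 2, 1071, 843 and 1241 CPM at day 4, and 810.4, 690.3 and 757 CPM at day 6. The sum in IAA was thus above DMSO at day 0 and below it from day 2 on, and its part in the IAA changes given below was not tested. By means, 8 of the 9 markers were higher in IAA than in DMSO at day 0 and 0 at day 2. At day 4, 2 were higher and 7 lower, and at day 6, 3 were higher and 6 lower. The 3 were Pou5f1 (220 CPM in IAA and 208 CPM in DMSO), Klf4 (75.6 and 66.7 CPM) and Tdgf1 (45.7 and 9.76 CPM). In bulk RNA, fewer cells of a type and less RNA per cell cannot be told apart.

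Ccn1 (ENSMUSG00000028195.4, chr3:145646976-145649981, minus strand, GRCm38) encodes a secreted matrix-associated protein and is among the most used readouts of YAP. It rose in IAA at all 4 days, and in BPK25 at day 4 its level was 296 ± 6.86 CPM, against 13.4 ± 1.27 CPM in DMSO. Ccn1 at day 0 had 10.4, 8.94 and 11.9 CPM in BPK25, 35.1, 34.4 and 31.4 CPM in IAA and 14.6, 14.7 and 11 CPM in DMSO. Ccn1 at day 2 had 9.90, 8.78 and 10.5 CPM in BPK25, 24.8, 30.1 and 26.9 CPM in IAA and 12.3, 12.3 and 12.8 CPM in DMSO. On both days the IAA libraries lay above all others. The BPK25 libraries overlapped the DMSO libraries at day 0 and lay below them at day 2. Ccn1 at day 4 had 304, 292 and 292 CPM in BPK25, 63.6, 55 and 60.5 CPM in IAA and 12, 13.5 and 14.5 CPM in DMSO. Ccn1 at day 6 had 40.4, 46.6 and 38.5 CPM in BPK25, 134, 135 and 133 CPM in IAA and 31.4, 35.3 and 33.4 CPM in DMSO. The 3 groups did not overlap at day 4, where BPK25 was highest, nor at day 6, where IAA was highest and BPK25 lay just above DMSO. The log2 fold change of IAA over DMSO was 1.32 ± 0.10, adjusted p = 2.7e-15, at day 0 and 1.13 ± 0.10, adjusted p = 1.49e-13, at day 2. It was 2.17 ± 0.084, adjusted p = 5.61e-27, at day 4 and 2.02 ± 0.062, adjusted p = 2.65e-31, at day 6. For BPK25 over DMSO the log2 differences were -0.38 ± 0.13, -0.37 ± 0.12, 4.48 ± 0.072 and 0.33 ± 0.072 at days 0, 2, 4 and 6. In DMSO alone Ccn1 rose at day 6 relative to day 0 (33.3 ± 1.95 CPM at day 6 and 13.4 ± 2.10 CPM at day 0, log2 fold change 1.29 ± 0.098, adjusted p = 3.03e-16).

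Ankrd1 (ENSMUSG00000024803.9, chr19:36111961-36120099, minus strand) encodes a nuclear ankyrin repeat protein known from heart muscle and is another standard YAP target. It was low at days 0 and 2, with 1 to 13 counts per library, and rose in IAA at days 4 and 6. Ankrd1 at day 0 had 0.402, 0.872 and 0.230 CPM in BPK25, 0.218, 1.11 and 0.582 CPM in IAA and 0.818, 0.656 and 0.621 CPM in DMSO. Ankrd1 at day 2 had 0.768, 1.10 and 0.417 CPM in BPK25, 1.02, 0.888 and 0.760 CPM in IAA and 0.143, 0.536 and 0.378 CPM in DMSO. The groups overlapped at day 0. At day 2 the IAA libraries lay above the DMSO libraries and inside the BPK25 range. Ankrd1 at day 4 had 8.45, 6.97 and 6.84 CPM in BPK25, 3.38, 3.15 and 2.76 CPM in IAA and 0.192, 0.477 and 0.147 CPM in DMSO. Ankrd1 at day 6 had 2, 4.25 and 2.84 CPM in BPK25, 15.3, 15.9 and 15.2 CPM in IAA and 1.51, 2.28 and 1.29 CPM in DMSO. At day 4 the order was BPK25, IAA, DMSO with no overlap. At day 6 IAA lay far above both, and the lowest BPK25 library lay inside the DMSO range. IAA over DMSO gave a log2 fold change of 3.36 ± 0.41, adjusted p = 1.16e-09, at day 4 and 3.22 ± 0.19, adjusted p = 2.3e-20, at day 6, and -0.13 ± 0.54, adjusted p = 0.873, at day 0. The day 4 value rests on few DMSO counts: without DMSO day 4 replicate 2 it was 4.05 (adjusted p = 1.77e-08). At day 2 it was 1.26 ± 0.55, adjusted p = 0.0497, a call that ended with RLE size factors (adjusted p = 0.0507), DESeq2 (adjusted p = 0.0542) or no filter (adjusted p = 0.0607). That call also ended without IAA day 2 replicate 1, 2 or 3 (log2 fold changes 1.17, 1.25 and 1.36) and without DMSO day 2 replicate 1 or 3 (0.96 and 1.31), with adjusted p between 0.04 and 0.165 over the libraries left out. For Ankrd1 the BPK25 log2 differences were -0.49 ± 0.55, 1.10 ± 0.55, 4.64 ± 0.34 and 0.83 ± 0.26 at days 0, 2, 4 and 6; the day 4 one was 5.33 without DMSO day 4 replicate 2.

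Amotl2 (ENSMUSG00000032531.15, chr9:102716672-102733418, plus strand) encodes an angiomotin-like junction protein that binds and restrains YAP and is itself a YAP target. It rose in IAA from day 2 on. Amotl2 at day 0 had 63, 62.1 and 63.9 CPM in BPK25, 81, 79.1 and 67.9 CPM in IAA and 69.8, 66.6 and 73.4 CPM in DMSO. Amotl2 at day 2 had 60, 61.2 and 65.8 CPM in BPK25, 160.1, 144 and 152 CPM in IAA and 64.1, 59.3 and 55.3 CPM in DMSO. The IAA libraries stood above all others at day 2, while at day 0 they overlapped DMSO. Amotl2 at day 4 had 354, 387 and 366 CPM in BPK25, 306, 309.8 and 290.05 CPM in IAA and 95.1, 88.8 and 98 CPM in DMSO. Amotl2 at day 6 had 184, 184 and 186 CPM in BPK25, 536, 529.8 and 541 CPM in IAA and 166, 169 and 164 CPM in DMSO. At day 4 the order was BPK25, IAA, DMSO with no overlap. At day 6 IAA stood far above both other groups, and BPK25 lay just above DMSO. The IAA log2 fold change was 1.36 ± 0.056, adjusted p = 3.76e-26, at day 2, 1.69 ± 0.049, adjusted p = 4.6e-32, at day 4 and 1.69 ± 0.045, adjusted p = 9.04e-34, at day 6. At day 0 it was 0.13 ± 0.061, adjusted p = 0.0772, which became a call without DMSO day 0 replicate 3 (0.16, adjusted p = 0.0478), without IAA day 0 replicate 3 (0.20, adjusted p = 0.00685) or with only the libraries of the day (0.15, adjusted p = 0.0389). Without other single libraries p ran up to 0.33. For Amotl2 the BPK25 log2 differences were -0.15 ± 0.061, 0.072 ± 0.060, 1.98 ± 0.049 and 0.15 ± 0.047 at days 0, 2, 4 and 6.

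Ccn2 (ENSMUSG00000019997.11, chr10:24595442-24598683, plus strand) encodes the connective tissue growth factor, a relative of the Ccn1 protein, and is listed beside it in most YAP target sets. It fell in IAA at days 0, 2 and 6, where Ccn1 rose. Ccn2 at day 0 had 17.9, 19.6 and 20.2 CPM in BPK25, 15, 14 and 12.2 CPM in IAA and 19.1, 19.6 and 16.9 CPM in DMSO. Ccn2 at day 2 had 19, 19.4 and 21.2 CPM in BPK25, 13, 12.8 and 10.7 CPM in IAA and 17.5, 18.6 and 20.3 CPM in DMSO. On both days the IAA libraries were the 3 lowest. Ccn2 at day 4 had 49.4, 51.2 and 50.2 CPM in BPK25, 16.1, 17.1 and 19.2 CPM in IAA and 16.7, 18.3 and 17.8 CPM in DMSO. Ccn2 at day 6 had 158, 167 and 156 CPM in BPK25, 31.5, 28.2 and 28 CPM in IAA and 99.1, 101 and 100.4 CPM in DMSO. At day 4 BPK25 stood alone above the other groups, which overlapped. At day 6 the order was BPK25, DMSO, IAA with no overlap. IAA over DMSO gave a log2 fold change of -0.42 ± 0.100, adjusted p = 0.000427, at day 0, -0.65 ± 0.096, adjusted p = 1.06e-07, at day 2 and -1.77 ± 0.060, adjusted p = 1.01e-29, at day 6. At day 4 it was -0.0023 ± 0.086, adjusted p = 0.998. For Ccn2 the BPK25 log2 differences were 0.040 ± 0.090, 0.059 ± 0.085, 1.51 ± 0.073 and 0.68 ± 0.047. In DMSO, Ccn2 rose at day 6 relative to day 0 (100.01 ± 0.805 CPM at day 6 and 18.5 ± 1.41 CPM at day 0, log2 fold change 2.43 ± 0.068, adjusted p = 5.14e-33). Its exons overlap 665 bases of the opposite-strand gene Gm15270, which held 618 counts over all libraries, against 14647 for Ccn2; whether reads were counted by strand is not known here.

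Since both genes are counted in the same library, the ratio of Ccn1 to Ccn2 counts does not depend on the scaling. At day 0 it was 0.542 ± 0.0748 for the BPK25 libraries, 2.46 ± 0.111 for the IAA libraries and 0.722 ± 0.0619 for the DMSO libraries. At day 2 it was 0.491 ± 0.0357 for the BPK25 libraries, 2.25 ± 0.307 for the IAA libraries and 0.665 ± 0.0386 for the DMSO libraries. At day 4 it was 5.89 ± 0.233 for the BPK25 libraries, 3.43 ± 0.440 for the IAA libraries and 0.759 ± 0.0526 for the DMSO libraries. At day 6 it was 0.260 ± 0.0170 for the BPK25 libraries, 4.61 ± 0.293 for the IAA libraries and 0.333 ± 0.0171 for the DMSO libraries. Ccn1 counts thus exceeded Ccn2 counts in every IAA library and in the BPK25 libraries of day 4, and in no other library. These counts are not per length, and the merged exons span 2019 bases in Ccn1 and 2861 in Ccn2. As CPM per kilobase of exon (RPKM), mean Ccn1 in DMSO was above mean Ccn2 at day 0 (6.66 and 6.47) and day 4 (6.62 and 6.15). It was below mean Ccn2 at day 2 (6.18 and 6.57) and day 6 (16.5 and 35).

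**Figure D1:**
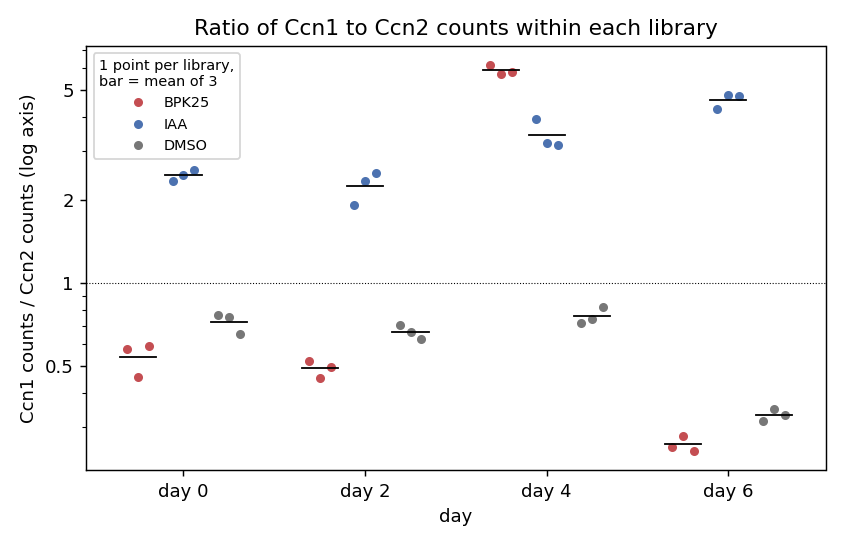
Ratio of Ccn1 to Ccn2 counts within each library by day, on a log axis, with 1 point per library and a bar at the mean of 3. Every IAA library and the 3 BPK25 libraries of day 4 lie above the dotted line at 1; all other libraries lie below it. The line marks equal counts, not equal levels per length.

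Lats2 (ENSMUSG00000021959.16, chr14:57689662-57758388, minus strand) encodes a kinase that phosphorylates YAP and is also induced by it. It did not pass the test in IAA at any day, and it rose over the DMSO days. Lats2 at day 4 had 10.9, 11.7 and 11.7 CPM in BPK25, 6.19, 8.70 and 7.82 CPM in IAA and 8.08, 9.82 and 8.52 CPM in DMSO. Lats2 at day 6 had 13.7, 15.9 and 13.1 CPM in BPK25, 10.2, 12.3 and 13.1 CPM in IAA and 14, 12.6 and 14.8 CPM in DMSO. The BPK25 libraries were the 3 highest at day 4, and the groups overlapped at day 6. The IAA log2 fold changes were -0.19 ± 0.18, adjusted p = 0.431, at day 0, -0.014 ± 0.17, adjusted p = 0.956, at day 2, -0.22 ± 0.13, adjusted p = 0.163, at day 4 and -0.24 ± 0.11, adjusted p = 0.0605, at day 6. The last was called without DMSO day 6 replicate 2 (-0.28, adjusted p = 0.039) and without IAA day 6 replicate 3 (-0.31, adjusted p = 0.0314), in a range of p over single libraries that reached 0.443. In DMSO the log2 fold change was 0.68 ± 0.16, adjusted p = 0.000329, at day 4 and 1.32 ± 0.14, adjusted p = 1.19e-11, at day 6, both relative to day 0. For Lats2 the BPK25 log2 differences were 0.085 ± 0.17, -0.0044 ± 0.17, 0.36 ± 0.13 and 0.028 ± 0.10. These values are uncertain, because 2955 bases of Lats2 exon are shared with the model Gm49361 on the same strand, which held 4032 counts over all libraries, against 2965 for Lats2. Gm49361 fell in IAA at all 4 days, with log2 fold changes of -0.53 (adjusted p = 0.000164), -0.62 (2.41e-05), -0.40 (0.00171) and -0.79 (7.3e-09) at days 0, 2, 4 and 6.

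**Figure D2:**
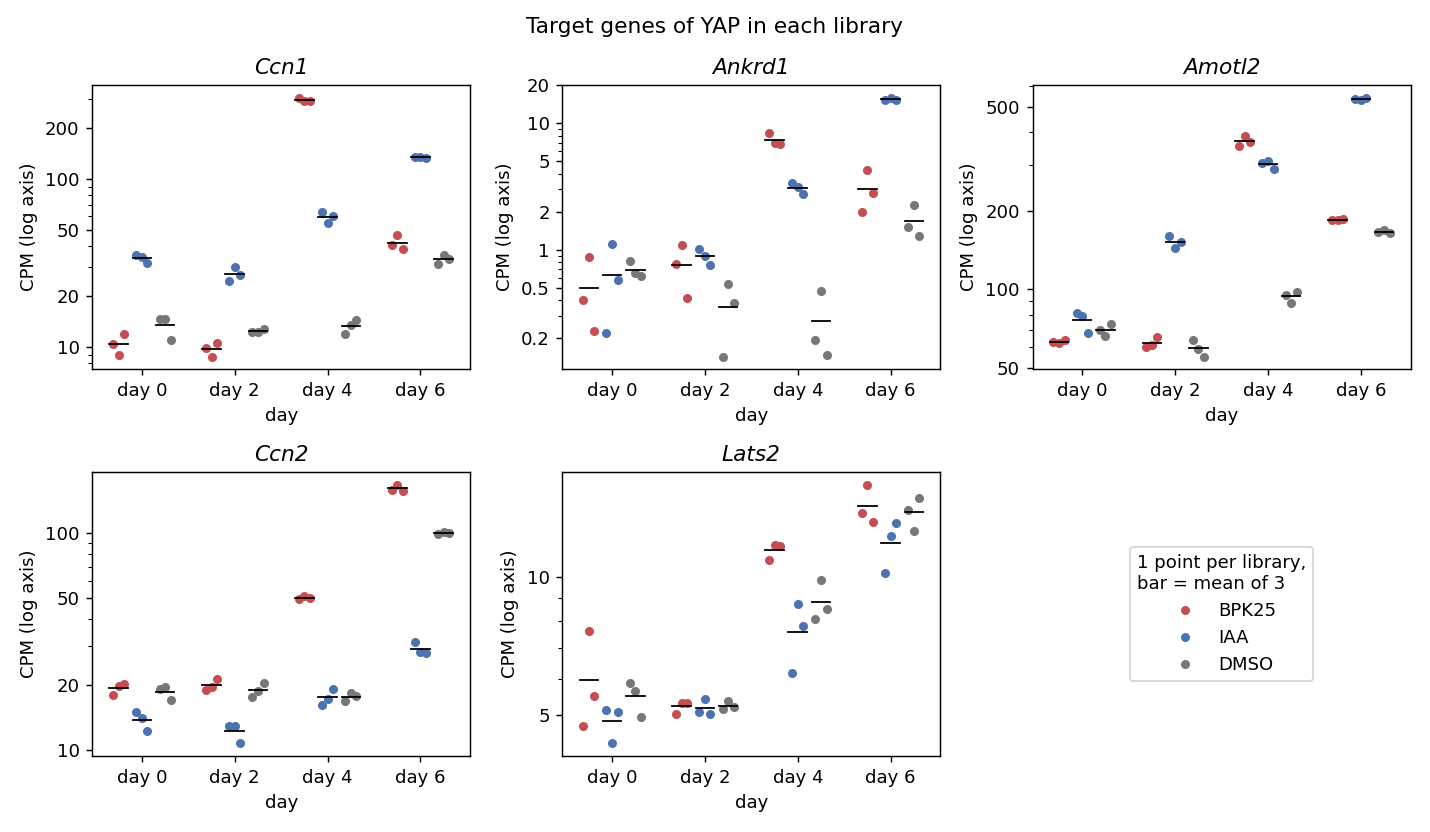
Level in CPM (log axis) of the 5 YAP target genes in each library by day, with 1 point per library, a bar at the mean of 3, and BPK25, IAA and DMSO side by side within a day. At day 4 the BPK25 libraries are the highest for all 5 genes (Ccn1 296 ± 6.86 CPM), while at day 6 IAA is highest for Ccn1, Ankrd1 and Amotl2 and lowest for Ccn2.

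The coactivator genes changed less. Yap1 (ENSMUSG00000053110.13, chr9:7931999-8004596, minus strand) fell in IAA at days 0, 4 and 6. Yap1 at day 0 had 149.6, 165 and 146 CPM in BPK25, 108, 104 and 112 CPM in IAA and 165, 144 and 148 CPM in DMSO. Only the IAA libraries stood apart at that day. The IAA log2 fold change was -0.50 ± 0.056, adjusted p = 2.85e-10, at day 0, -0.18 ± 0.052, adjusted p = 0.00367, at day 4 and -0.24 ± 0.053, adjusted p = 0.000111, at day 6. At day 2 it was 0.028 ± 0.054, adjusted p = 0.684. At day 4 Yap1 averaged 134 ± 8.96 CPM in BPK25, 133 ± 6.18 CPM in IAA and 149.8 ± 5.02 CPM in DMSO. At day 6 it averaged 133 ± 4.06 CPM, 124 ± 4.14 CPM and 146 ± 3.93 CPM in the same treatments. For Yap1 the BPK25 log2 differences were 0.0096 ± 0.054, 0.054 ± 0.053, -0.16 ± 0.053 and -0.14 ± 0.052. No DMSO day differed from day 0 for Yap1 by the test: adjusted p was 0.519 at day 2, 0.755 at day 4 and 0.355 at day 6.

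Wwtr1 (ENSMUSG00000027803.14, chr3:57455649-57575910, minus strand), the TAZ gene, moved in IAA in both directions: it rose at days 0, 2 and 6 and fell at day 4. Wwtr1 at day 2 had 102, 101 and 99.9 CPM in BPK25, 127, 126 and 123 CPM in IAA and 93.9, 91.8 and 92.2 CPM in DMSO. Wwtr1 at day 4 had 146, 149 and 149 CPM in BPK25, 91.7, 85.2 and 91.2 CPM in IAA and 119.7, 119.6 and 116 CPM in DMSO. No groups overlapped on these days, and the order changed: IAA was highest at day 2 and lowest at day 4, when BPK25 was highest. The IAA log2 fold change was 0.43 ± 0.046, adjusted p = 1.77e-11, at day 2, -0.41 ± 0.045, adjusted p = 6.28e-11, at day 4 and 0.26 ± 0.044, adjusted p = 2.64e-06, at day 6. At day 0 it was 0.14 ± 0.048, adjusted p = 0.013, and the call ended without DMSO day 0 replicate 3 (0.13, adjusted p = 0.0565, the highest p over the libraries left out; the lowest was 0.0141). For Wwtr1 the BPK25 log2 differences were 0.023 ± 0.048, 0.12 ± 0.046, 0.32 ± 0.043 and 0.026 ± 0.045. In DMSO, Wwtr1 rose at day 4 relative to day 0 (0.32 ± 0.047, adjusted p = 1.11e-07), and at day 6 its log2 fold change was 0.0015 ± 0.047, adjusted p = 0.98.

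The TEAD genes each took a different course. Tead1 (ENSMUSG00000055320.17, chr7:112679318-112906807, plus strand), which the mouse needs for heart development, rose in IAA at days 0, 4 and 6, and its BPK25 libraries lay below DMSO at days 0 and 2 and above it at day 4. Tead1 at day 2 had 98.4, 101 and 96.7 CPM in BPK25, 128, 127 and 127 CPM in IAA and 126, 126 and 129 CPM in DMSO. Tead1 at day 4 had 124, 119.6 and 118 CPM in BPK25, 136, 145 and 146 CPM in IAA and 105, 102 and 97.2 CPM in DMSO. Tead1 at day 6 had 112, 105 and 108 CPM in BPK25, 169.8, 172 and 168 CPM in IAA and 116, 111 and 116 CPM in DMSO. BPK25 was lowest at day 2 and stood between IAA and DMSO at day 4. At day 6 it overlapped DMSO, with IAA above both. The IAA log2 fold change was 0.19 ± 0.045, adjusted p = 0.000335, at day 0, 0.49 ± 0.043, adjusted p = 1.26e-13, at day 4 and 0.57 ± 0.042, adjusted p = 1.28e-16, at day 6; at day 2 it was 0.0028 ± 0.044, adjusted p = 0.964. For Tead1 the BPK25 log2 differences were -0.27 ± 0.045, -0.36 ± 0.044, 0.24 ± 0.044 and -0.079 ± 0.043. In DMSO it fell at day 4 (-0.33 ± 0.046, adjusted p = 2.83e-08) and day 6 (-0.16 ± 0.044, adjusted p = 0.00147), each relative to day 0.

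Tead2 (ENSMUSG00000030796.17, chr7:45215753-45233644, plus strand), the TEAD gene known for expression in the early mouse embryo, fell in IAA at day 6 (-0.25 ± 0.064, adjusted p = 0.000672). Tead2 at day 4 had 40.5, 41.4 and 40.3 CPM in BPK25, 47.6, 55.9 and 49.6 CPM in IAA and 55.7, 54.3 and 60.4 CPM in DMSO. Tead2 at day 6 had 44.6, 48.6 and 47.8 CPM in BPK25, 41.5, 39.3 and 44.1 CPM in IAA and 49.9, 50.6 and 48 CPM in DMSO. At day 4 the BPK25 libraries were the 3 lowest, and at day 6 the IAA libraries were. At day 0 the IAA log2 fold change was -0.19 ± 0.068, adjusted p = 0.0215, and at day 4 it was -0.15 ± 0.061, adjusted p = 0.0381. The day 0 call ended with DESeq2 (adjusted p = 0.0508), with no filter (adjusted p = 0.132), and without DMSO day 0 replicate 3 (-0.12), IAA day 0 replicate 2 (-0.17) or IAA day 0 replicate 3 (-0.17), p running from 0.0133 to 0.191 over single libraries. The day 4 call ended with DESeq2 (adjusted p = 0.0717), with no filter (adjusted p = 0.21) and in fits of the 9 libraries of the day (adjusted p = 0.0513) or of the 2 groups alone (adjusted p = 0.0549). It ended likewise without DMSO day 4 replicate 1 (-0.16) or 3 (-0.11) and without IAA day 4 replicate 1 (-0.10) or 3 (-0.12), with p from 0.00574 to 0.201 over single libraries. For Tead2 the BPK25 log2 differences were 0.16 ± 0.064, 0.11 ± 0.060, -0.47 ± 0.064 and -0.078 ± 0.061.

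Tead4 (ENSMUSG00000030353.15, chr6:128224288-128300823, minus strand), which mouse embryos need to form trophectoderm, rose in IAA at day 0 and fell at day 6. Tead4 at day 0 had 32.3, 26.8 and 29.4 CPM in BPK25, 46.9, 46.8 and 48.5 CPM in IAA and 30.7, 32.4 and 27.9 CPM in DMSO. Tead4 at day 4 had 16.6, 17.1 and 12.7 CPM in BPK25, 22.1, 21.7 and 22 CPM in IAA and 20.4, 20.7 and 18.8 CPM in DMSO. Tead4 at day 6 had 22.3, 23.5 and 19.2 CPM in BPK25, 19.9, 18.9 and 20.8 CPM in IAA and 23.9, 25.7 and 25.8 CPM in DMSO. The IAA libraries stood above the others at day 0. At day 6 the IAA and BPK25 libraries lay below the DMSO libraries and overlapped each other. The IAA log2 fold change was 0.64 ± 0.079, adjusted p = 3.32e-09, at day 0 and -0.33 ± 0.086, adjusted p = 0.0009, at day 6. At days 2 and 4 it was -0.14 ± 0.089, adjusted p = 0.188, and 0.13 ± 0.088, adjusted p = 0.227. For Tead4 the BPK25 log2 differences were -0.036 ± 0.083, -0.15 ± 0.087, -0.39 ± 0.096 and -0.22 ± 0.083. In DMSO Tead4 fell relative to day 0 at day 4 (-0.60 ± 0.090, adjusted p = 2.07e-07) and day 6 (-0.29 ± 0.083, adjusted p = 0.00245).

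**Figure D3:**
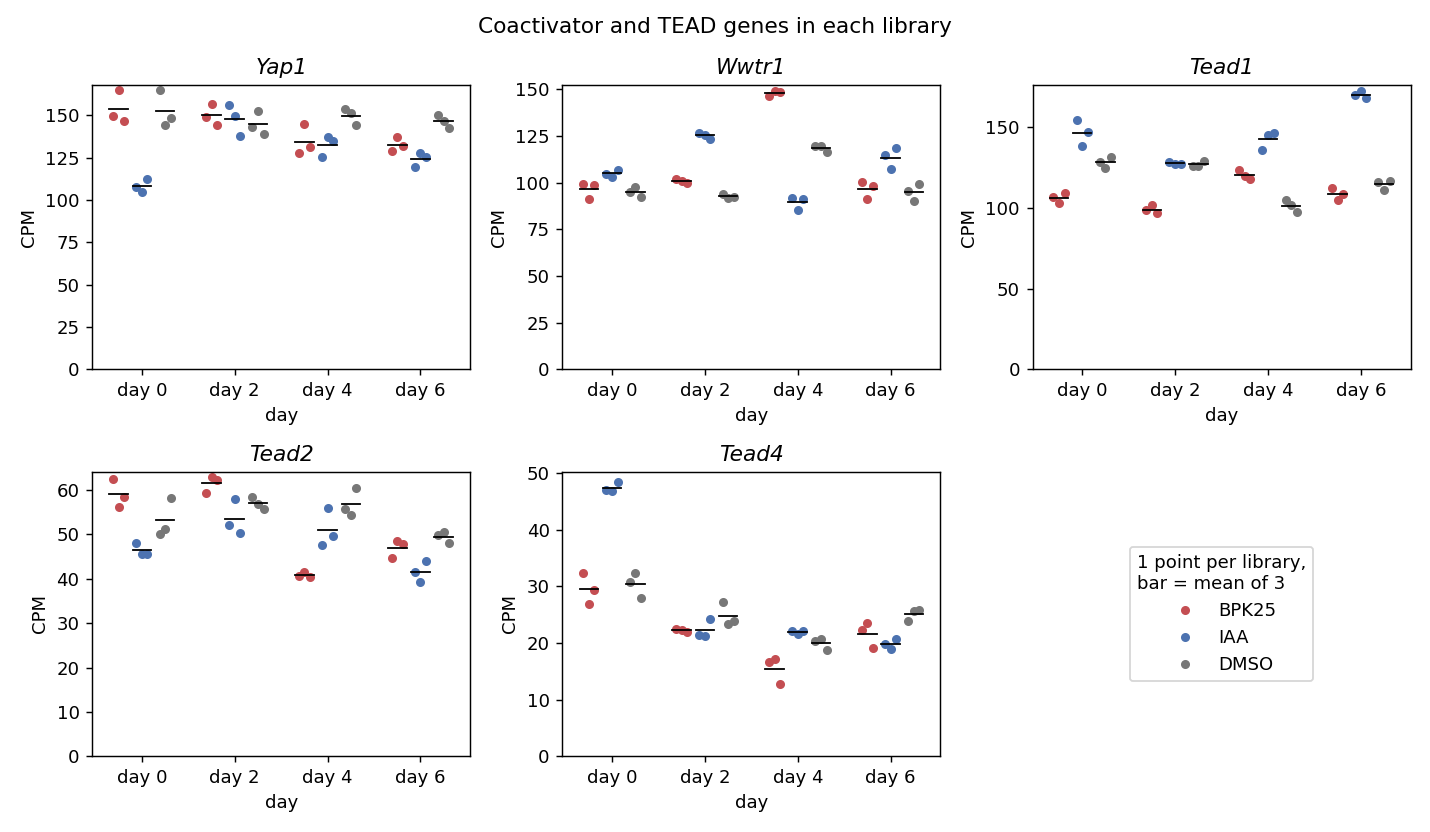
Level in CPM (linear axis from 0) of Yap1, Wwtr1, Tead1, Tead2 and Tead4 in each library by day, with 1 point per library and a bar at the mean of 3. Wwtr1 in IAA lies above DMSO at day 2 and below it at day 4 (89.3 ± 3.62 CPM in IAA and 119 ± 1.83 CPM in DMSO), and Tead4 in IAA at day 0 stands above all other groups.

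Counted over the 10 genes, 4 rose, 3 fell and 3 did not pass the test in IAA at day 0, where 44.5% of all genes tested were called in either direction. At day 2 the counts were 4, 1 and 5 (55.4% of all genes called), at day 4 they were 4, 3 and 3 (51.9%), and at day 6 they were 5, 4 and 1 (60.6%). The median log2 fold change over the 10 was 0.00012, 0.015, 0.063 and 0.0090 at days 0, 2, 4 and 6, against -0.031, -0.0068, -0.0036 and 0.0014 over all genes tested. The IAA effect differed between days by the joint test for 8 of the 10 (all but Lats2, adjusted p = 0.756, and Tead2, adjusted p = 0.376), where 70.1% of all genes tested were called. In DMSO at day 2 relative to day 0, 2 of the 10 were called, both lower, where 5.44% of all genes were called: Amotl2 (-0.24 ± 0.063, adjusted p = 0.0152) and Tead4 (-0.30 ± 0.088, adjusted p = 0.0322). Both calls were lost in a fit of the compared libraries alone (adjusted p = 0.0531 and 0.0686), and that of Tead4 also with no filter (adjusted p = 0.0715). The Amotl2 call ended without DMSO day 0 replicate 1 (-0.24) or 3 (-0.20) or DMSO day 2 replicate 3 (-0.18), with p from 0.00795 to 0.197 over single libraries. The Tead4 call ended without DMSO day 0 replicate 1 (-0.30) or 2 (-0.25) or DMSO day 2 replicate 2 (-0.27) or 3 (-0.27), with p from 0.0193 to 0.173. At day 4 relative to day 0, 3 rose (Amotl2, Lats2, Wwtr1) and 2 fell (Tead1, Tead4), where 50.3% of all genes were called. At day 6, 5 rose (the 5 target genes) and 2 fell (Tead1 and Tead4), where 62.7% were called; Amotl2 had a log2 fold change of 1.25 ± 0.054, adjusted p = 2.52e-25, and Ankrd1 1.22 ± 0.41, adjusted p = 0.00824. Ankrd1 at day 4 (-1.24 ± 0.63, adjusted p = 0.0993) was called without DMSO day 4 replicate 2 (-1.93, adjusted p = 0.0467, with p up to 0.254 over single libraries). The IAA and DMSO day comparisons share DMSO libraries.

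For BPK25, whose effect was used to propose the set, the libraries of the 2 groups did not overlap for 2 of the 10 genes at day 0, both lower in BPK25, where 24.3% of all genes tested did not overlap. At day 2 they did not overlap for 5 genes, 2 higher and 3 lower (27.8% of all genes). At day 4, 7 were higher, 2 were lower and 1 overlapped (57.2%). At day 6, 3 were higher, 2 lower and 5 overlapped (23.4%). A difference of at least 2-fold was seen for 4 of the 10 at day 4 (Ccn1, Ankrd1, Amotl2 and Ccn2), where 11.3% of all genes differed by that much, for 1 at day 2 (Ankrd1; 2.09% of all genes), and for 0 at days 0 and 6 (2.10% and 1.24% of all genes). Set side by side at day 4, Ccn1 had log2 values over DMSO of 4.48 ± 0.072 in BPK25 and 2.17 ± 0.084 in IAA, and Ccn2 1.51 ± 0.073 in BPK25 and -0.0023 ± 0.086 in IAA. At day 6 Ccn1 had 0.33 ± 0.072 in BPK25 and 2.02 ± 0.062 in IAA, and Ccn2 0.68 ± 0.047 in BPK25 and -1.77 ± 0.060 in IAA. Both sets of values use the same DMSO libraries, and the difference between the compounds was not tested.

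**Figure D4:**
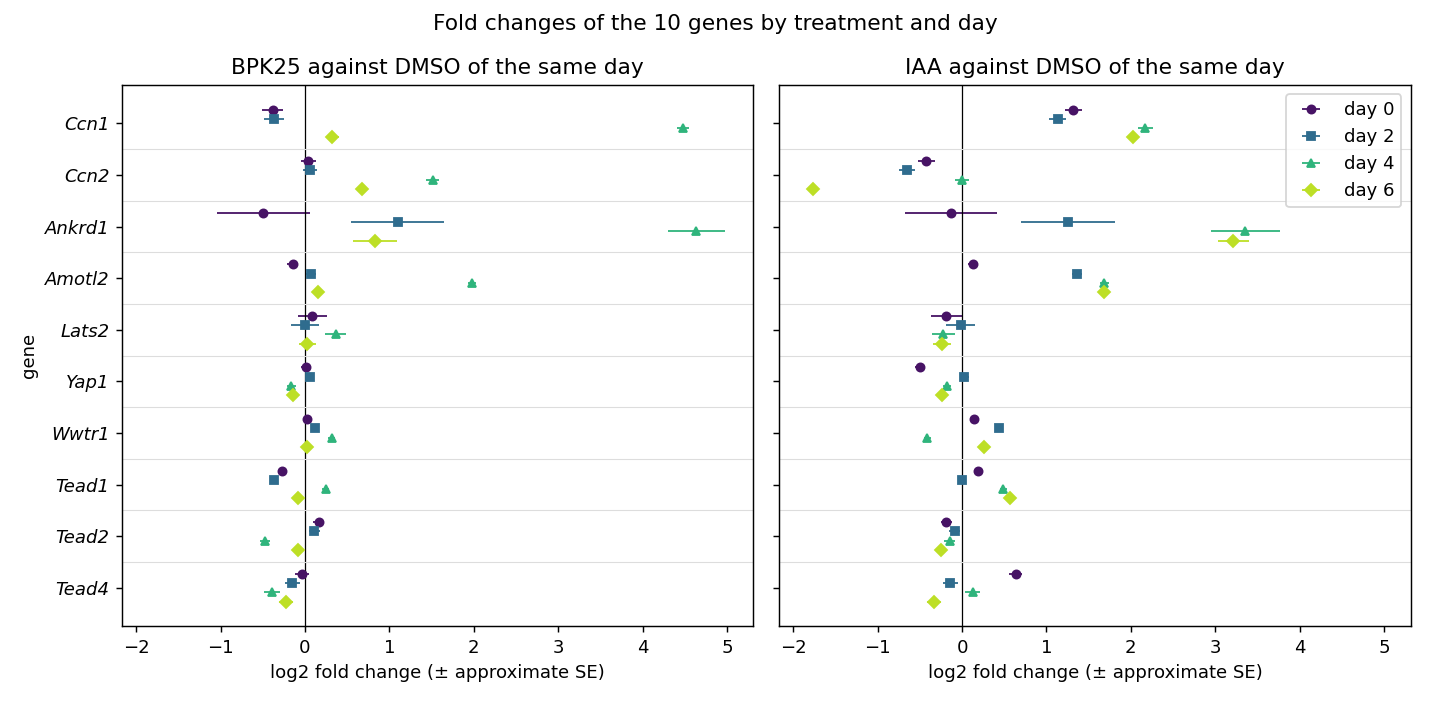
Log2 fold change over DMSO of the same day for the 10 genes by day, BPK25 left of IAA, with error bars for the approximate standard error. Ccn1 and Ankrd1 in BPK25 peak at day 4 (4.48 and 4.64), while in IAA both are above 2 at days 4 and 6.

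Beyond the 10 genes, 24 further Hippo regulators were tested, among them the kinases, their activators and the upstream membrane proteins. The list also holds genes of other or opposing function, such as Ajuba, Tead3 and Vgll4, so its counts and medians give no direction of the pathway. In IAA, 8 rose, 7 fell and 9 did not pass at day 0 (median log2 fold change 0.052), and 17 rose, 2 fell and 5 did not pass at day 2 (0.40). At day 4, 16 rose, 4 fell and 4 did not pass (0.28), and at day 6, 16 rose, 4 fell and 4 did not pass (0.30). The share of the 24 called was 62.5%, 79.2%, 83.3% and 83.3% at days 0, 2, 4 and 6, against 44.5%, 55.4%, 51.9% and 60.6% of all genes tested. The medians over all genes are those given above. At day 6 the highest were Tead3, the remaining TEAD gene (15.9 ± 1.34 CPM in IAA and 5.69 ± 0.982 CPM in DMSO, 1.44 ± 0.14, adjusted p = 1.49e-12), the protocadherin gene Fat4 (18.6 ± 2.59 CPM in IAA and 7.36 ± 0.719 CPM in DMSO, 1.34 ± 0.14, adjusted p = 1.1e-11) and Wwc2, a KIBRA relative (259 ± 7.34 CPM in IAA and 127 ± 3.36 CPM in DMSO, 1.02 ± 0.041, adjusted p = 1.12e-26). The lowest were Ajuba, whose LIM protein binds and restrains LATS (26.3 ± 1.82 CPM in IAA and 53.7 ± 2.51 CPM in DMSO, -1.03 ± 0.075, adjusted p = 1.1e-16), Nf2, which encodes Merlin (-0.27), and Stk4 (-0.23). Ajuba fell in IAA on all 4 days, and at day 2 it had 22.3 ± 2.23 CPM in IAA and 52.9 ± 4.51 CPM in DMSO, -1.26 ± 0.081, adjusted p = 1.31e-18. At day 0 the highest were Frmd6, a FERM protein upstream of the kinases (0.94 ± 0.079, adjusted p = 3.09e-14), Wwc2 (0.51) and Wwc1 (0.39). At day 2 they were Vgll4, a TEAD cofactor that competes with YAP (1.22 ± 0.25, adjusted p = 3.83e-05), Dchs1, the ligand of Fat4 (1.21 ± 0.22, adjusted p = 4.97e-06), and Mob1b, an activator of LATS (1.11 ± 0.081, adjusted p = 9.35e-17), and at day 4 Fat4 stood first (11.8 ± 0.508 CPM in IAA and 1.74 ± 0.296 CPM in DMSO, 2.76 ± 0.21, adjusted p = 1.46e-15).

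In BPK25, of the 24 regulators 1 rose, 2 fell and 21 did not pass at day 0, where 7.90% of all genes were called, and 6 rose, 4 fell and 14 did not pass at day 2 (13.5%). At day 4, 14 rose, 4 fell and 6 did not pass (53.0%), with a median log2 fold change of 0.26 against -0.0066 over all genes, and at day 6, 3 rose, 3 fell and 18 did not pass (7.09%). At day 4 the highest were Frmd6 (75.4 ± 0.952 CPM in BPK25 and 35.1 ± 2.16 CPM in DMSO, 1.09 ± 0.070, adjusted p = 1.29e-18), the kinase gene Lats1 (61.8 ± 3.08 CPM in BPK25 and 34 ± 1.88 CPM in DMSO, 0.87 ± 0.063, adjusted p = 1.51e-16) and Mob1b (0.79 ± 0.071, adjusted p = 1.68e-13). The lowest were Dchs1 (-0.42 ± 0.16, adjusted p = 0.0215), Stk3 (-0.35 ± 0.060, adjusted p = 2.29e-06) and the upstream kinase gene Taok2 (-0.14 ± 0.043, adjusted p = 0.0048). The call of Dchs1 ended when replicate 3 of BPK25 or replicate 1 or 3 of DMSO was left out (-0.56 to -0.31 over all such omissions, highest adjusted p = 0.148), and that of Taok2 without BPK25 day 4 replicate 1 (-0.20 to -0.11 over all such omissions, highest adjusted p = 0.0596). Ajuba fell in BPK25 at day 0 (-0.34 ± 0.073, adjusted p = 0.00133), day 2 (-0.37 ± 0.071, adjusted p = 0.000205) and day 6 (-0.23 ± 0.067, adjusted p = 0.0262). Its call at day 6 ended without BPK25 replicate 2 or 3 or DMSO replicate 1 of that day (-0.28 to -0.19 over all such omissions, highest adjusted p = 0.189) and with DESeq2 (adjusted p = 0.0531). Counts over both lists moved by more than 1.5 times when 1 library was left out at day 0 (BPK25 replicate 1 or DMSO replicate 1: 3 called in place of 6) and at day 6 (BPK25 replicate 1 or DMSO replicate 1: 3 called in place of 9; BPK25 replicate 3: 5).

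A second list held 17 other genes of a conserved YAP and TAZ signature known mainly from human cell lines. In IAA, 3 rose, 8 fell and 6 did not pass at day 0 (44.5% of all genes called; median log2 fold change of the list -0.29), and 3 rose, 6 fell and 8 did not pass at day 2 (55.4%; -0.31). At day 4, 8 rose, 5 fell and 4 did not pass (51.9%; 0.10), and at day 6, 8 rose, 5 fell and 4 did not pass (60.6%; 0.22). The share of the list called was 64.7%, 52.9%, 76.5% and 76.5% at the 4 days, below that of all genes at day 2. At day 6 the highest were Rbms3, an RNA-binding protein gene (7.33 ± 0.849 CPM in IAA and 0.956 ± 0.349 CPM in DMSO, 2.84 ± 0.24, adjusted p = 1.22e-14), Tgfb2, a TGF-beta ligand (12.4 ± 0.731 CPM in IAA and 2.94 ± 0.669 CPM in DMSO, 2.10 ± 0.16, adjusted p = 6.32e-16), and Axl, a receptor tyrosine kinase gene (12.4 ± 0.794 CPM in IAA and 4.07 ± 0.911 CPM in DMSO, 1.62 ± 0.15, adjusted p = 2.24e-13). The lowest were the forkhead gene Foxf2 (-1.91 ± 0.35, adjusted p = 7.52e-06), the ecto-nucleotidase gene Nt5e (-1.47 ± 0.27, adjusted p = 8.4e-06) and Crim1 (43.8 ± 0.909 CPM in IAA and 114 ± 8.95 CPM in DMSO, -1.39 ± 0.059, adjusted p = 1.21e-25). The value of Nt5e was -2.14 without IAA day 6 replicate 2 (adjusted p = 1.23e-07). In BPK25 at day 4, 4 rose, 10 fell and 3 did not pass (53.0% of all genes called), with a median log2 fold change of -0.20. Those that rose included Axl (4.89 ± 1.26 CPM in BPK25 and 2.31 ± 0.279 CPM in DMSO, 1.05 ± 0.22, adjusted p = 5.25e-05), Tgfb2 (0.70 ± 0.29, adjusted p = 0.0382) and Gadd45a, a growth arrest and DNA damage gene (0.46 ± 0.055, adjusted p = 6.31e-10). The lowest were Ccdc80 (0.341 ± 0.377 CPM in BPK25 and 1.59 ± 0.288 CPM in DMSO, -1.95 ± 0.44, adjusted p = 0.000192), Rbms3 (-1.58 ± 0.62, adjusted p = 0.0286) and Dock5 (13.5 ± 1.05 CPM in BPK25 and 37.5 ± 1.27 CPM in DMSO, -1.49 ± 0.097, adjusted p = 2.97e-18). The call of Tgfb2 ended when replicate 1 or 3 of BPK25 or replicate 2 or 3 of DMSO was left out (0.63 to 0.80 over all such omissions, highest adjusted p = 0.0972), with DESeq2 (adjusted p = 0.0707) or with no filter (adjusted p = 0.0753). That of Rbms3 ended when replicate 1 or 3 of BPK25 or replicate 1 of DMSO was left out (-1.76 to -1.35 over all such omissions, highest adjusted p = 0.124), with DESeq2 (adjusted p = 0.0522) or in the fit of the 9 libraries of the day (adjusted p = 0.056). Without BPK25 day 4 replicate 1 the value of Ccdc80 was -3.16 (adjusted p = 1.95e-05). This list thus had more genes that fell than rose in BPK25 at the day when Ccn1, Ankrd1, Amotl2 and Ccn2 lay at least 2-fold above DMSO. Gadd45a was the single gene of the list called in BPK25 at day 2 (78.4 ± 3.46 CPM in BPK25 and 53 ± 0.466 CPM in DMSO, 0.56 ± 0.053, adjusted p = 1.09e-10), where 13.5% of all genes were called. In BPK25 at day 0, 3 rose, 0 fell and 14 did not pass (7.90% of all genes called), namely Gadd45a (0.43 ± 0.055, adjusted p = 9.16e-07), Crim1 (0.24 ± 0.077, adjusted p = 0.0451) and Igfbp3 (0.22 ± 0.069, adjusted p = 0.0393). The call of Crim1 ended whichever single library was left out and with DESeq2 (adjusted p = 0.051), and that of Igfbp3 ended without BPK25 replicate 2 or 3, without DMSO replicate 1 or 2 (highest adjusted p = 0.24) and with no filter (adjusted p = 0.0516). At day 6, 3 rose, 0 fell and 14 did not pass (7.09%), namely Ccdc80 (0.87 ± 0.17, adjusted p = 0.000602), Gadd45a (0.18 ± 0.057, adjusted p = 0.0421) and Myof (0.13 ± 0.040, adjusted p = 0.0353). The calls of Gadd45a and Myof ended whichever single library was left out (highest adjusted p = 0.143 and 0.116), with no filter (adjusted p = 0.22 and 0.282) and in both fits of fewer libraries, and that of Gadd45a also with DESeq2 (adjusted p = 0.0634) and the replicate block (adjusted p = 0.0501).

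Over the DMSO days, 16 of the 24 regulators rose, 5 fell and 3 did not pass at day 6 relative to day 0 (62.7% of all genes called), with a median log2 fold change of 0.25 against 0.031 over all genes. The highest were Fat4 (7.36 ± 0.719 CPM in DMSO day 6 and 0.313 ± 0.282 CPM in DMSO day 0, 4.45 ± 0.37, adjusted p = 8.62e-15), Dchs1 (14.1 ± 2.05 CPM in DMSO day 6 and 1.67 ± 0.258 CPM in DMSO day 0, 3.08 ± 0.19, adjusted p = 2.87e-19) and Vgll4 (1.08 ± 0.24, adjusted p = 0.000103). Without DMSO day 0 replicate 1 the value of Fat4 was 5.04 (adjusted p = 1.33e-12). For the other YAP targets on that list, 10 of 17 rose and 4 fell (62.7% of all genes called), and the median was 0.65. Ccdc80 (2.13 ± 0.30, adjusted p = 2.43e-08), Crim1 (1.83 ± 0.065, adjusted p = 6.89e-29) and Tgfb2 (1.75 ± 0.32, adjusted p = 5.82e-06) were highest.

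**Figure D5:**
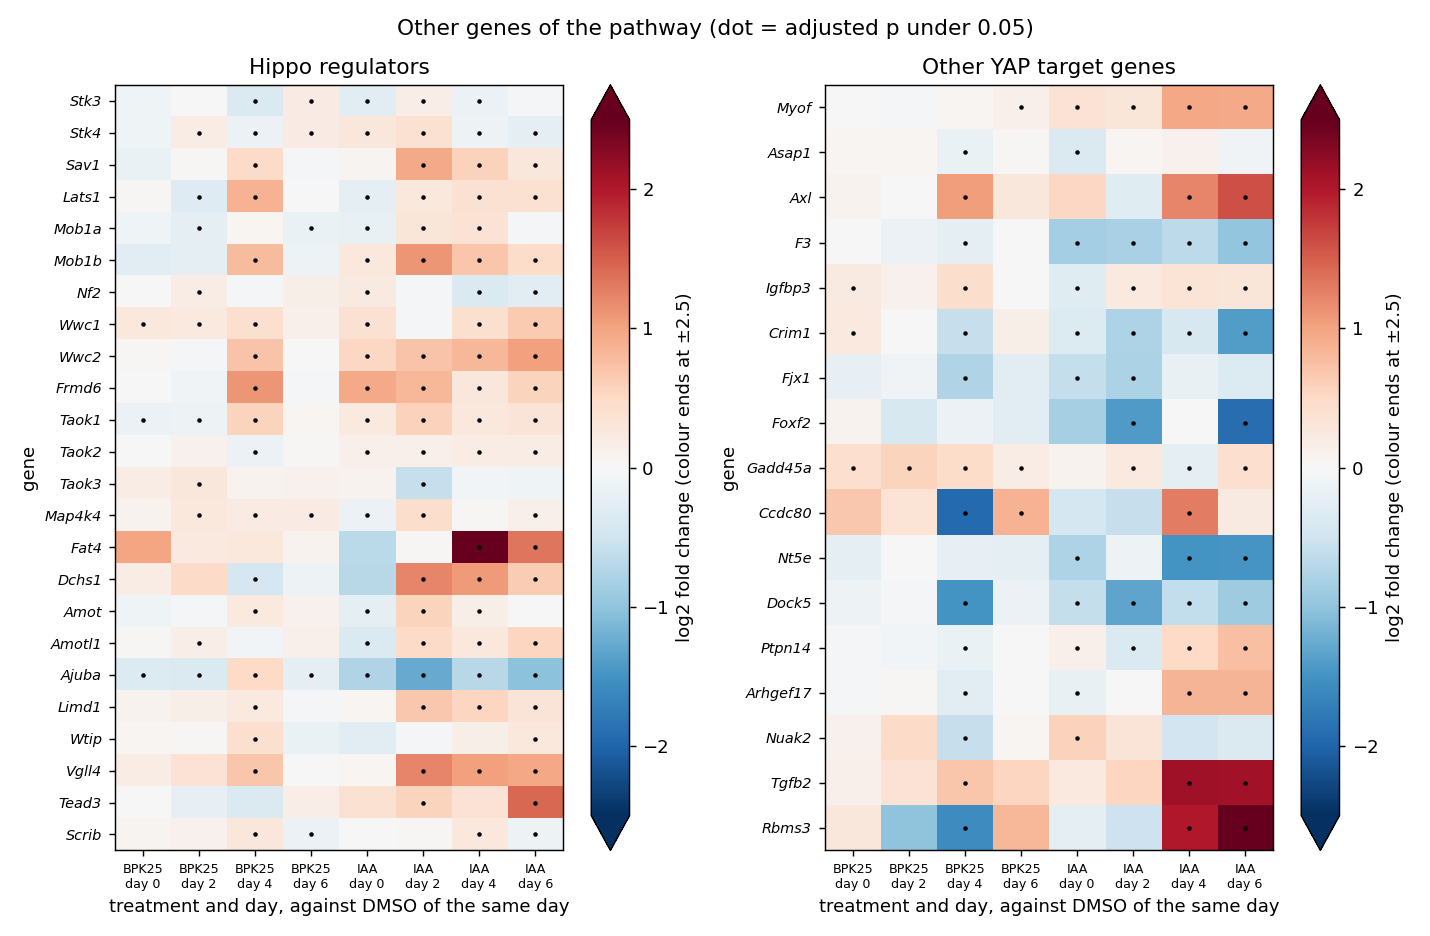
Log2 fold change over DMSO of the same day for the 24 Hippo regulators and the 17 other YAP target genes. In the BPK25 column of day 4, Frmd6 and Lats1 lie at 1.09 and 0.87, while Ccdc80 and Dock5 lie at -1.95 and -1.49; Ajuba is below 0 in all 4 IAA columns.

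Fibroblasts express Ccn1, Ccn2 and Ankrd1 strongly and could be present as feeders. The summed level of 16 fibroblast markers at day 4 was 197 to 205 CPM in BPK25, 387 to 402 CPM in IAA and 264 to 276 CPM in DMSO, with 14 of 16 above 0 in BPK25 and Lum and Dcn at 0. Pdgfra, also known from primitive endoderm, and Fbn1 held 74.7% of that sum in BPK25, with 96.3, 228 and 159 CPM for Pdgfra and 53.6, 89.2 and 59.7 CPM for Fbn1 in BPK25, IAA and DMSO. By means, 12 of the 16 were lower in BPK25 than in DMSO and 4 were higher, among them Twist1 (7.12 CPM in BPK25 and 3.18 CPM in DMSO), Thy1 (2.77 and 1.33 CPM) and Col5a1 (22.5 and 19.9 CPM). The part of such cells in the BPK25 level of Ccn1 was not tested. At day 6 the sum was 426 to 452 CPM in BPK25, 586 to 589 CPM in IAA and 404 to 414 CPM in DMSO, all 16 above 0. IAA was thus highest for this sum and for Ccn1, Ankrd1 and Amotl2, and its part in those levels was not tested. By means, 10 of the 16 were higher in IAA than in DMSO at day 6 and 6 were lower. Among the higher were Col3a1 (103 CPM in IAA and 19.7 CPM in DMSO), Col1a2 (55.2 and 20.2 CPM) and Twist1 (13.7 and 4.41 CPM). Col6a3 (0.832 CPM in IAA and 4.23 CPM in DMSO) and Dcn (0.662 and 1.32 CPM) were among the lower. At day 0 the sum was 189 to 196, 152 to 162 and 188 to 190.5 CPM in BPK25, IAA and DMSO. Pdgfra stood at 92.2 CPM in IAA and 127 CPM in DMSO at that day, whereas 5 of the 16 were higher in IAA, Thy1 (6.25 CPM in IAA and 0.608 CPM in DMSO) among them. Lum was at 0 in IAA and Twist2 in DMSO. At day 2 the sum was 179 to 182, 257 to 271 and 168 to 176 CPM in BPK25, IAA and DMSO, with Lum, Dcn and Fap at 0 in IAA. Pdgfra and Fbn1 held 82.5% of the IAA sum at that day. By means, 7 of the 16 were higher in IAA than in DMSO and 9 were lower. A trophectoderm list of 9 genes summed at day 4 to 199 to 210.2 CPM in BPK25, 333 to 348 CPM in IAA and 83.7 to 84.9 CPM in DMSO. Krt8 and Krt18, keratins of simple epithelia in general, held 83.6% of it in BPK25 and 86.1% in IAA; Krt8 stood at 81.8, 153 and 35.3 CPM in BPK25, IAA and DMSO and Krt18 at 89.3, 142 and 24.7 CPM. Cdx2 (0.338, 0.468 and 0.127 CPM) and Elf5 (0.0715, 0.0617 and 0.0638 CPM) were near 0 in all 3, Tfap2c was at 6.44, 5.01 and 6.14 CPM, and Gata3 at 3.74, 20.4 and 2.39 CPM. At day 6 the list summed to 183 to 198 CPM in BPK25, 471 to 499 CPM in IAA and 161 to 167 CPM in DMSO. By means at day 4, 9 of its 9 genes were higher in BPK25 than in DMSO, and in IAA 7 were higher and 2 lower. By means at day 6, 5 were higher in BPK25 than in DMSO and 4 lower, and in IAA 9 were higher. Cdx2 at day 6 stood at 0.339, 2.12 and 0.268 CPM in BPK25, IAA and DMSO. An endoderm list of 12 genes summed at day 4 to 3844 to 3938 CPM in BPK25, 11313 to 11754 CPM in IAA and 6698 to 6774 CPM in DMSO. Col4a1 and Sparc held 59.6% of that sum in IAA, and Col4a1 and Lamb1 held 58.5% of it in BPK25. By means, 8 of the 12 were higher in IAA than in DMSO and 4 were lower. The lower ones were Gata4, Thbd, Sox17 (32.4 CPM in IAA and 37.4 CPM in DMSO) and Sox7 (36.4 and 40.4 CPM). In BPK25, 1 of the 12 was higher than in DMSO and 11 were lower. At day 0 the endoderm sums averaged 5074, 3321 and 4921 CPM in BPK25, IAA and DMSO, with 0 of the 12 higher in IAA than in DMSO and 12 lower. At day 2 they averaged 4701, 4900 and 4694 CPM, with 7 higher in IAA and 5 lower. At day 6 they averaged 13373, 14016 and 13295 CPM, with 3 higher in IAA and 9 lower. The part of either list's cells in the levels of the target genes was not tested.

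Levels of different genes were compared per length, as CPM per kilobase of merged exons (RPKM). In DMSO at day 0 Wwtr1 (19.9 ± 0.513 RPKM) and Yap1 (16.5 ± 1.19) led the 10, followed by Amotl2 (11.1 ± 0.545), Tead2 (11.1 ± 0.921), Tead1 (9.44 ± 0.264) and Tead4 (8.44 ± 0.629). Ccn1 (6.66 ± 1.04 RPKM) and Ccn2 (6.47 ± 0.493) came next, and Lats2 (0.788 ± 0.0672) and Ankrd1 (0.242 ± 0.0365) were lowest; the libraries of Amotl2 and Tead2 overlapped, as did those of Ccn1 and Ccn2. In BPK25 at day 4 the order was led by Ccn1 (146 ± 3.40 RPKM), Amotl2 (58.7 ± 2.60) and Wwtr1 (31 ± 0.302), and in IAA at day 6 by Amotl2 (85.2 ± 0.877), Ccn1 (66.5 ± 0.432) and Wwtr1 (23.7 ± 1.20). In DMSO at day 6 Ccn2 (35 ± 0.281 RPKM) led, then Amotl2 (26.5 ± 0.443).

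The genes whose levels were most like those of Ccn1 were sought among 11764 genes by Pearson's r of log2(CPM + 1) over the 12 group means, as a description; the means share libraries and days. The 5 highest were Fos (0.963), an immediate early gene, Cnn1 (0.960), the smooth muscle calponin gene, Ppp1r12b (0.955), a myosin phosphatase subunit gene, Ist1 (0.955), an ESCRT-related gene, and Rock2 (0.954), a kinase gene of the actin cytoskeleton. At day 4 Rock2 had 485 ± 38.5 CPM in BPK25, 347 ± 9.83 CPM in IAA and 232 ± 11.1 CPM in DMSO. Cnn1 had 19 ± 1.31, 9.80 ± 0.368 and 2.83 ± 0.347 CPM in the same treatments, and Fos had 9.34 ± 1.08, 2.86 ± 0.397 and 1.58 ± 0.220 CPM. They were chosen for likeness to Ccn1, so the order they share with it is no separate result. Among the 10 genes, Amotl2 (0.908) and Ankrd1 (0.894) were closest to Ccn1, Ccn2 stood at 0.378, Yap1 at -0.555, and Tead2 at -0.929 was the most opposed. By Spearman's rank correlation none of the 5 nearest genes was the same (0 of 5). By that measure Fos and Rock2 shared rank 9 of the 11764 genes, and Ppp1r12b, Ist1 and Cnn1 ranked 72, 100 and 237.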

How the data were processed

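Per the labels' protocols, SMARTer mRNA-seq libraries were made from mouse embryonic stem cells, 36 in all. Raw counts for 55335 genes, 1 column per library title, were deposited by the authors in 1 table. The submitters' processing notes name mm10, featureCounts 2.0.1, HISAT2 2.1.0, FastQC 0.11.7 and DESeq2. Strand handling and the annotation release were not stated there.

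From these counts, edgeR 4.0.16 (R 4.3.3) kept 17394 genes with filterByExpr (minimum count 10, minimum total 15), scaled by TMM and fitted all 36 libraries as 12 groups, with two-sided quasi-likelihood tests (glmQLFit, glmQLFTest) and Benjamini-Hochberg adjustment over all genes tested. GENCODE M21 on GRCm38, matched by 54587 gene IDs, gave positions and exon lengths; promoter sequence came from RefSeq. The members, lists and tests were chosen with earlier results of these data known. Named pathway genes are up to 3 highest and 3 lowest among those that passed in a comparison described; some that met the rule are not described. Replicates differed by more than counting noise (chi-square per degree of freedom 1.36 to 2.90 over 36 pairs). Alternatives were RLE size factors, DESeq2 1.42.0, no or a stricter filter (1 CPM in 3 libraries), fewer libraries in the fit, a replicate term and each library left out.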

Additional observations from a re-analysis of the deposited data

Results flagged for a closer look

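The effect of IAA over DMSO differed between days for 8 of the 10 genes, by edgeR's joint test of the 3 differences from the day 0 effect, with adjusted p of 8.11e-10 for Ccn1, 8.82e-20 for Ccn2, 2.62e-05 for Ankrd1, 5.25e-23 for Amotl2, 1.49e-06 for Yap1, 2.16e-15 for Wwtr1, 2.18e-11 for Tead1 and 3.04e-09 for Tead4. The same test called 70.1% of all 17394 genes. The span between the lowest and the highest daily log2 fold change was 3.49 for Ankrd1, 1.76 for Ccn2, 1.56 for Amotl2, 1.04 for Ccn1, 0.97 for Tead4, 0.84 for Wwtr1, 0.57 for Tead1 and 0.53 for Yap1. The daily values had both signs for 4 of the 8: Wwtr1 (0.14, 0.43, -0.41 and 0.26 at days 0, 2, 4 and 6), Tead4 (0.64, -0.14, 0.13 and -0.33), Ankrd1 (-0.13, 1.26, 3.36 and 3.22) and Yap1 (-0.50, 0.028, -0.18 and -0.24). The day 0 value of Ankrd1, the day 2 value of Yap1 and the day 2 and day 4 values of Tead4 were not called.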

How the results depend on the processing

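Replicate numbers did not pair the libraries: correlations of deviations from the group means ran from -0.0282 to 0.0260 between same-numbered libraries, and in 0 of 11 comparisons were all pairs above 0.1. With the replicate block, 4 of 265 results changed: Lats2 in IAA at day 6 became a call (-0.25, adjusted p = 0.035), Wwtr1 in DMSO at day 6 turned to -0.00081, and the calls of Gadd45a in BPK25 at day 6 (0.18, adjusted p = 0.0501) and Lats1 in DMSO at day 2 (0.26, adjusted p = 0.0531) ended. Counts changed by over 1.5 times in DMSO at day 2 relative to day 0: with only the libraries compared, 620 genes were called in place of 946, 0 members in place of 2 and 2 pathway genes in place of 6, and with no filter 1 member was called. Leaving out 1 library gave 412 to 954 genes, 0 to 2 members and 2 to 6 pathway genes there. For BPK25 it gave 844 to 1012 genes (1374 with all) and 3 to 4 pathway genes (6) at day 0, and 544 to 1224 genes (1233) and 3 to 7 pathway genes (9) at day 6. By Spearman, 0 of the 5 genes most like Ccn1 were kept. Signs turned for values near 0 that were not called. Ccn2 in IAA at day 4 was 0.023 with no filter, 0.0020 in the fit of 9 libraries and 0.00064 with only those compared. Tead1 in DMSO at day 2 was 0.0026 with no filter and 0.0036 with only those compared, and in IAA at day 2 it was -0.00075 with DESeq2 and -0.00036 with RLE. Wwtr1 in DMSO at day 6 was -0.020 with DESeq2 or RLE and -0.027 with only those compared. Without 1 library, ranges that crossed 0 were -0.88 to 0.33 for Ankrd1 in IAA at day 0, -0.15 to 0.042 for Ccn1 in DMSO at day 4, -0.041 to 0.075 for Ccn2 in DMSO at day 2 and -0.076 to 0.050 in IAA at day 4, -0.051 to 0.011 for Lats2 in IAA at day 2, -0.031 to 0.0092 for Tead1 in DMSO at day 2 and -0.0034 to 0.016 in IAA at day 2, and -0.043 to 0.021 for Wwtr1 in DMSO at day 6. For Yap1 they were -0.064 to 0.038 in DMSO at day 4, -0.098 to 0.0040 in DMSO at day 6 and -0.011 to 0.076 in IAA at day 2. The cause of these changes was not tested. Depth limits Ankrd1, with 1 to 13 counts per library at days 0 and 2 and 1 to 5 in DMSO at day 4, and listed genes such as Rbms3 and Fat4, at 0.379 and 0.313 CPM in DMSO at day 0.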
